A study of Mus musculus with 6 samples.

Results

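The cytosolic ribosomal protein genes were examined in sorted cartilage cells of mice. A gene was a member if its row in the count table was protein-coding, if it carried the name of a protein of the small (Rps) or large (Rpl) cytosolic subunit, of Rpsa or of the stalk (Rplp0, Rplp1, Rplp2), and if it had 10 or more counts in at least 3 of the 6 libraries. The kinases named Rps6k were left out. Of the 54532 genes in the table, 82 carried such a name and 80 were members. These were 32 proteins of the 40S subunit, 45 of the 60S subunit and the 3 stalk proteins. The 2 genes outside the count minimum were Rpl10l, with no count in any library, and Rpl3l, with 11 counts in all. The member nearest to the minimum on the inside was Rpl36al, with 466 counts in all and 5 libraries at 10 counts or more.

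The ribosome is built from ribosomal RNA and a fixed set of proteins. The small subunit reads the mRNA, the large subunit joins the amino acids, and the stalk of the large subunit recruits the translation factors. Many mRNAs of these proteins begin with a C followed by a run of pyrimidines, the 5′ terminal oligopyrimidine tract, through which mTOR and the RNA-binding protein LARP1 set their translation and stability. Chondrocytes secrete large amounts of matrix protein, and inherited defects of single ribosomal proteins cause blood disease and, for some, skeletal defects.

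The cells came from C57BL/6 mice that carried Gli1-CreERT2 and the tdTomato (Ai9) reporter and had received tamoxifen (TAM) at 1 month of age. In these mice, cells in which the Gli1 promoter was active at that time become tdTomato+. Gli1+ cells (CD45-, CD31-, Ter119-, tdTomato+) and Gli1- cells (CD45-, CD31-, Ter119-, tdTomato-) were sorted from the same mice, with 3 biological replicates of each. The reporter marks Gli1 activity on the days of TAM only, and cells in which recombination failed fall among the Gli1- cells. All groups carried the same alleles and had the same treatment. The labels give the tissue as growth plate, while the text of the study names costal cartilage.

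The libraries held 17114101 to 18602482 counts on genes. Gli1 itself, in CPM (counts scaled to a common library size with TMM factors), was at 4.55, 6.39 and 7.98 in Gli1+ replicates 1 to 3 and at 0.724, 1.26 and 2.43 in Gli1- replicates 1 to 3, so the Gli1+ libraries lay above all Gli1- libraries. The summed level of 14 chondrocyte markers, which include Col2a1 and Sox9, lay between 8133 and 36750 CPM. Summed levels of 7 endothelial and 7 erythroid genes were at most 17.6 and 19.96 CPM. The 10 neutrophil genes summed to 3388 CPM in Gli1- replicate 1, led by S100a9 and S100a8, and to between 9.93 and 77.7 CPM in the other 5 libraries. The 9 macrophage genes summed to 70.6, 338 and 210 CPM in Gli1+ replicates 1 to 3. In Gli1- replicates 1 to 3 they summed to 1062, 582 and 344 CPM, the higher library of each pair. Gli1+ replicate 1 stood apart with 15000 genes detected, against 20666 to 23360 in the others.

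Start sites were read from RefSeq promoter sequences (GRCm38.p6), in which 60 of the 80 members had an entry by symbol. The start was a C followed by at least 4 pyrimidines in 13 of these 60 members (21.7%), against 3.01% of 27025 genes with a promoter, where a gene with several starts counted if any of them did. The following windows, from 10 bases before to 20 bases from the start onwards, belong to 7 members whose values are described later, with the run of pyrimidines from the first transcribed base in capitals.
Rps6: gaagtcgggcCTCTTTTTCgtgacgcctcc
Rps10: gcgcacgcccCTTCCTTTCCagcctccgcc
Rps18: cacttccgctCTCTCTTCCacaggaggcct
Rps21: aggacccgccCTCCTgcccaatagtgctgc
Rps27: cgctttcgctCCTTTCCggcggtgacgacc
Rpl38: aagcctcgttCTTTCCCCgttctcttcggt
Rplp2: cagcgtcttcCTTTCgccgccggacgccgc
The windows lie at chr4:86857348-86857377 on the minus strand for Rps6, at chr17:27635225-27635254 on the minus strand for Rps10, at chr17:33955646-33955675 on the minus strand for Rps18 and at chr2:180257369-180257398 on the plus strand for Rps21. That of Rps27 is at chr3:90213629-90213658 on the minus strand, that of Rpl38 at chr11:114668570-114668599 on the plus strand and that of Rplp2 at chr7:141447641-141447670 on the plus strand. The run was 10 bases long in Rps10, 9 in Rps6 and Rps18, 8 in Rpl38, 7 in Rps27 and 5 in Rps21 and Rplp2. The letters CCGGAAG, a core that ETS factors bind, stood on either strand between 250 bases before and 50 bases after a start in 26 of the 60 members (43.3%), against 9.93% of all genes with a promoter. A match of letters is a description and not a site that was shown to be used. The count of 13 rests on the annotated first base, whose accuracy was not tested, so other members may also have such a start.

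The members took very different shares of the counts in the 6 libraries. They held 3.12% of all counts in Gli1+ replicate 1, 14.6% in Gli1+ replicate 2 and 4.89% in Gli1+ replicate 3. In the Gli1- libraries they held 4.79% in replicate 1, 11.5% in replicate 2 and 4.47% in replicate 3. Both replicate 2 libraries therefore lay above the other 4, in either population, and the populations overlapped. The mean share was 7.52% ± 6.15 (SD, n = 3) in Gli1+ cells and 6.91% ± 3.94 (SD, n = 3) in Gli1- cells. Within replicate numbers, the share in Gli1+ cells was 0.651 times that in Gli1- cells for replicate 1, 1.27 times for replicate 2 and 1.09 times for replicate 3. Counting error was small beside these differences, with exact binomial 95% intervals from 3.11% to 3.12% in Gli1+ replicate 1 and from 14.5% to 14.6% in Gli1+ replicate 2. Such intervals cover counting error only. The counts on Rpl genes were between 1.26 and 1.39 times those on Rps genes in every library, so genes of both subunits shared the pattern.

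**Figure D1:**
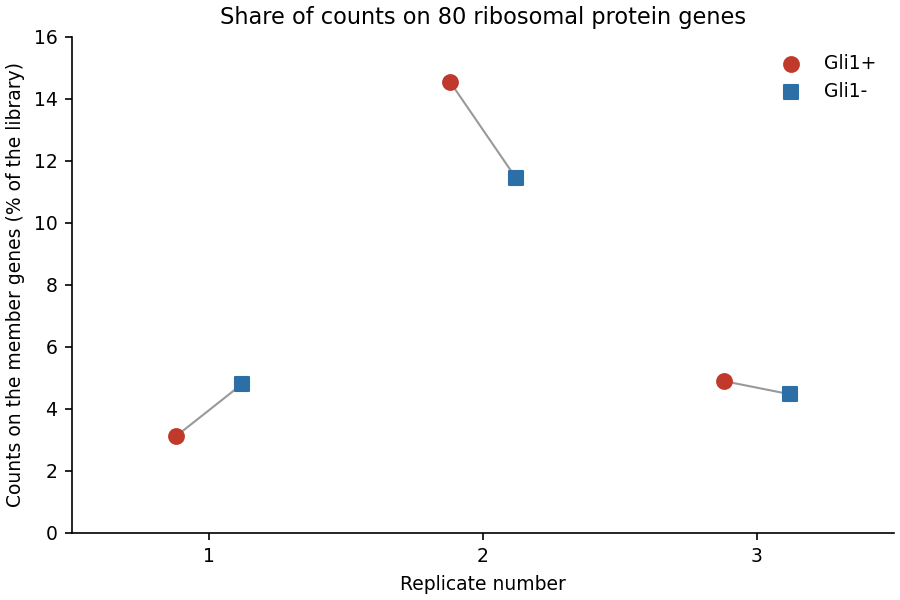
Share of each library's counts that fell on the 80 member genes (y axis, %), by replicate number (x axis), with Gli1+ libraries as circles, Gli1- libraries as squares and a line joining libraries of the same number. The replicate 2 libraries are at 14.6% and 11.5%, and the other 4 lie between 3.12% and 4.89%.

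Levels were compared between genes as CPM per kb of the principal transcript, averaged over the 6 libraries. They spanned from 4547 CPM per kb for Rplp1 to 6.60 for Rpl24, with a median of 972 over the 80 members against 5.59 over all 14801 genes tested. The 10 highest members were Rplp1, Rpl41, Rpl13, Rps14, Rps3a1, Rplp0, Rps15, Rps6, Rps18 and Rpl32, between 4547 and 1791 CPM per kb. The rank order of the 80 members was alike in 5 libraries, with Spearman coefficients of 0.833 to 0.956 between any pair of them. Pairs with Gli1+ replicate 1 had coefficients from 0.628 to 0.775. These coefficients run over genes, which are not independent replicates, and all libraries share the genes' lengths and base composition.

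The lowest members were low in all libraries. Of the 5 lowest, Rpl13a, Rps10, Rpl36al, Rpl39l and Rpl24, all but Rpl39l shared over 50% of their exon bases with another annotated gene on the same strand. The shares were 71.5% for Rpl24 with Gm28037, 63.1% for Rpl36al with Gm49383, 59.3% for Rpl13a with Gm45713 and 53.6% for Rps10 with RPS10-NUDT3. Among the other 76 members, Rpl19 had such an overlap (10.7%) and 75 had none. Each of the 4 overlapping genes held 0 counts in every library. How the authors' counting treated reads that hit several genes is not given in the sources used here, so the levels of these 4 members are uncertain, and whether the overlap lowers them was not tested. Rpl24, a protein of the 60S subunit whose mouse mutant has skeletal and pigment defects, had 10, 83 and 107 counts in Gli1+ replicates 1 to 3 and 105, 57 and 120 in Gli1- replicates 1 to 3. Such counts are far under those of any other skeletal gene of the family, as Rpl38 held 1439 to 14636 counts in each library.

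**Figure D2:**
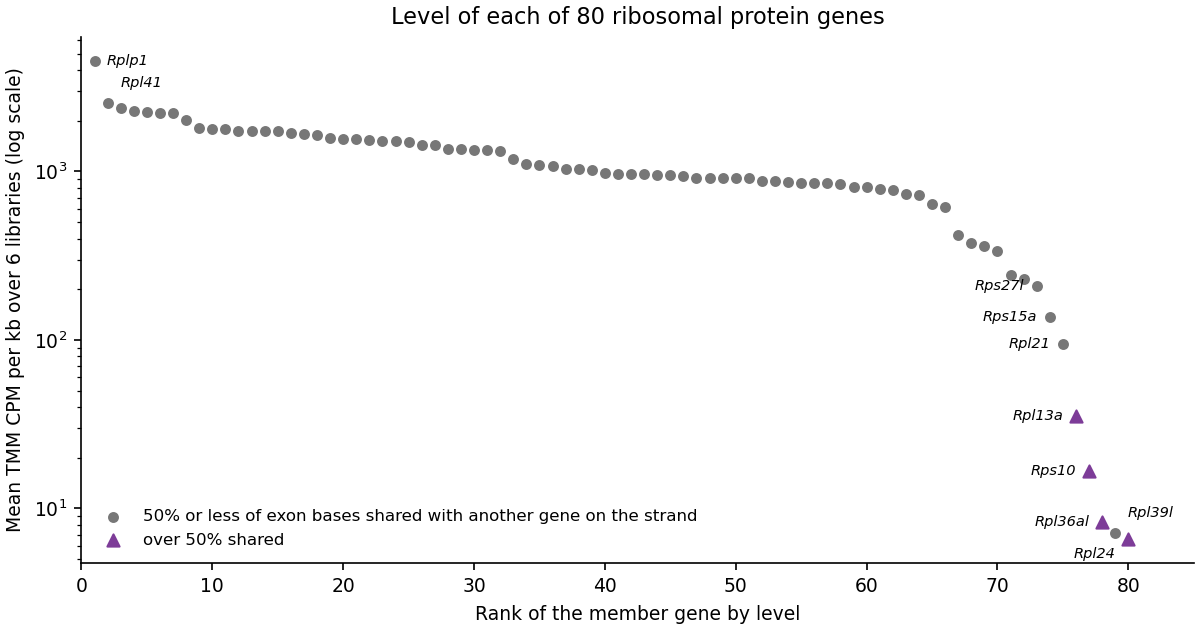
Mean level of each of the 80 members over 6 libraries (y axis, TMM CPM per kb of transcript, log scale) by rank (x axis). Triangles mark the 4 members that share over 50% of their exon bases with another gene on the same strand, which have ranks 76, 77, 78 and 80.

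Copies of these genes also took up counts. The table holds 295 rows named after a member with the ending -ps, of which 182 had a count, for 59 of the members. They held 22.8 times as many counts as the member for Rps10, whose 4 copies had 35760 counts in all against 1569 on Rps10, and 1.08 times as many for Rpl21. For all other members the copies held fewer counts than the member. A 100-base window of the transcript was also present in another annotated transcript somewhere in 73 of the 80 members, and in 33 of them over 50% of such windows were. Counts of these members can be split between rows, and copies that carry other names were not added up.

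The first comparison was between Gli1+ and Gli1- cells. It asks whether ribosomal protein mRNA, relative to all mRNA, was higher or lower in cells marked for Gli1 activity than in the other cells of the same mice. The fold changes are log2 of Gli1+ over Gli1-, so a positive value is higher in Gli1+ cells. None of the 80 members passed the threshold in either direction by edgeR's quasi-likelihood test (adjusted p under 0.05 and a log2 fold change over 1 in size), where 0% of the 14801 genes tested did. At an unadjusted p under 0.05 there were 0 members, against 3.47% of all genes, and with the replicate number as a block again 0, against 8.61%. By DESeq2 with the replicate block 0 members were called, against 2.89% of all genes. For 0 members did the 3 Gli1+ libraries all lie on one side of the 3 Gli1- libraries, against 8.49% of all genes (4.04% higher and 4.45% lower in Gli1+ cells). For 77 of the 80 members that outcome was fixed, because both replicate 2 libraries, which belong to different populations, lay above the other 4. The fold changes ran from -0.70 for Rps10 to 0.55 for Rpl39l, with a median of 0.11 over the members and 0.0013 over all genes. They were above 0 for 56 members (70%), against 50.1% of all genes. Standard errors were between 0.60 and 1.30, so each fold change was smaller than its error. Fewer cells of a type and less RNA per cell cannot be told apart in such bulk samples.

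The sign of the group followed single libraries. With the replicate number as a block, 30 members (37.5%) were above 0, against 47.3% of all genes, and the median was -0.10. Without Gli1+ replicate 2 the median was -1.07 with 0 members above 0, and without Gli1- replicate 2 it was 0.90 with 78 above 0. Without Gli1+ replicate 1 the median was 0.48 with 78 above 0, and without Gli1+ replicate 3 it was 0.37 with 74 above 0. Without Gli1- replicate 1 or 3 it was -0.17 in both cases, with 12 and 14 members above 0.

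**Figure D3:**
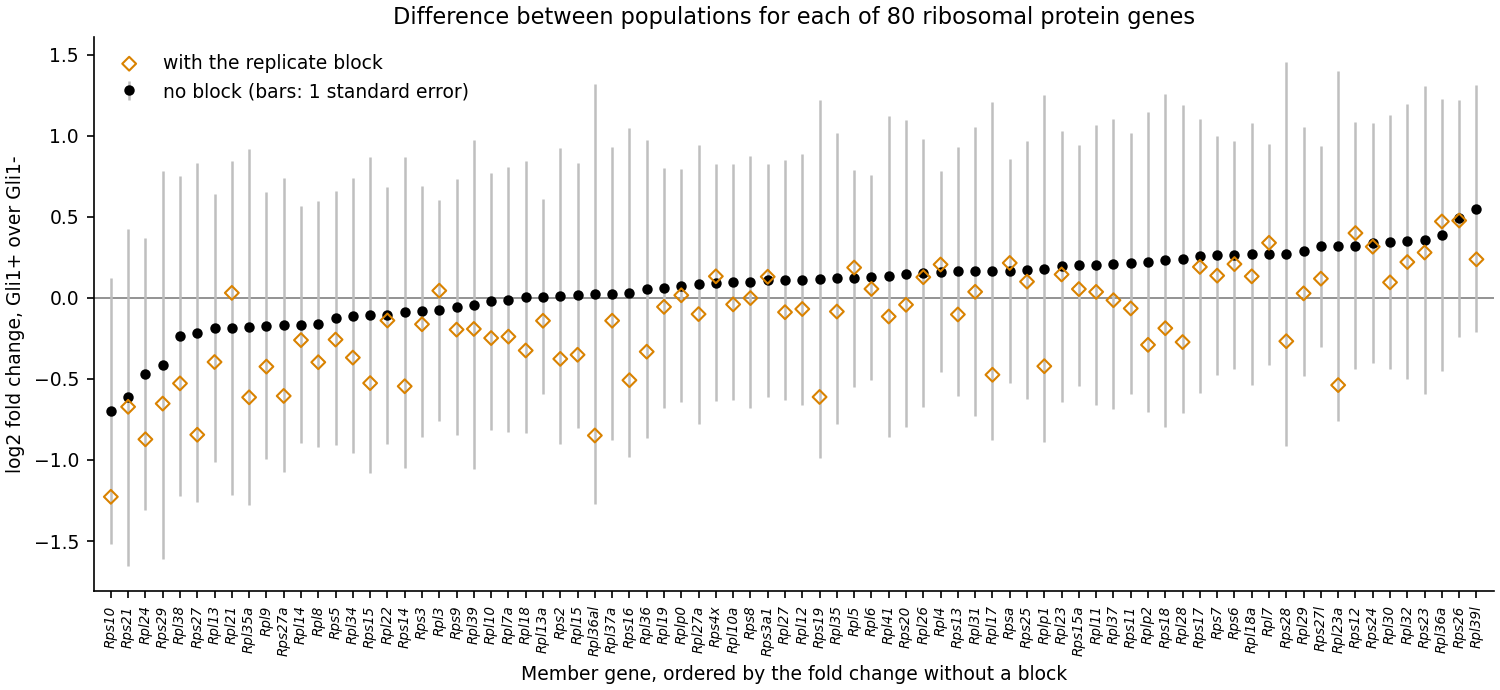
Log2 fold change of Gli1+ over Gli1- cells (y axis) for each member (x axis, in order of the fold change). Filled points with bars of 1 standard error are from the fit without a block, and open diamonds from the fit with the replicate block, which lie under 0 for 50 of the 80 members.

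The highest fold changes belonged to Rpl39l, Rps26, Rpl36a, Rps23 and Rpl32, and none of them passed the test. Rps26 (ENSMUSG00000025362, chr10:128624534-128626747, minus strand, mm10) codes for a protein at the mRNA exit of the small subunit. It had 763.5, 2140 and 539.5 CPM in Gli1+ replicates 1 to 3 and 476, 1522 and 451 CPM in Gli1- replicates 1 to 3, with a fold change of 0.49 ± 0.73 (SE, edgeR adjusted p = 1.00). The Gli1+ library was the higher of each pair, while the replicate 2 libraries were the highest of their populations. Rpl36a, a protein of the large subunit near the tRNA exit, had 330, 1221 and 272 CPM in Gli1+ cells and 195, 984 and 213 CPM in Gli1- cells, again higher in Gli1+ cells within each of the 3 pairs. Rps23, which lies at the decoding centre, had 660, 3945 and 680 CPM in Gli1+ cells and 547, 2969 and 609 CPM in Gli1- cells. Its libraries split by replicate number too, and within each pair the Gli1+ library was higher.

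The lowest fold changes belonged to Rps10, Rps21, Rpl24, Rps29 and Rpl38. Rps21 (ENSMUSG00000039001, chr2:180257377-180258445, plus strand), a protein of the small subunit, had 94.6, 966 and 196 CPM in Gli1+ cells and 197, 1474 and 250 CPM in Gli1- cells. The Gli1+ library was the lower of each pair, with a fold change of -0.61 ± 1.04 (SE) and of -0.67 ± 0.27 (SE) with the block (edgeR, unadjusted p = 0.053), the smallest blocked p among the members. In DESeq2 with the block its fold change was -0.68 with an unadjusted p of 0.030 and an adjusted p of 0.31, and Rps29 had an unadjusted p of 0.0497. By that test 2 members thus had an unadjusted p under 0.05, against 11.7% of all genes. Rps29, a zinc-binding protein of the small subunit that is mutated in some families with Diamond-Blackfan anaemia, had 60.3, 1252 and 205 CPM in Gli1+ cells and 140, 1615 and 267 CPM in Gli1- cells, and was also lower in Gli1+ cells in each pair. Rpl38, whose loss in mice alters the axial skeleton, had 76.1, 899 and 184 CPM in Gli1+ cells against 181, 963 and 218 CPM in Gli1- cells. All 3 of these members are short, with principal transcripts of 390 to 457 bases. Among the highest fold changes, Rpl36a and Rpl32 were short as well, with 483 and 517 bases. The Spearman coefficient between fold change and transcript length was 0.04 over the 80 members.

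Rps10 (ENSMUSG00000052146, chr17:27630418-27636669, minus strand) had 23, 311 and 262 counts in Gli1+ replicates 1 to 3 and 361, 312 and 300 counts in Gli1- replicates 1 to 3. Its low fold change of -0.70 came with the count of 23 in Gli1+ replicate 1, and the other 5 libraries were close together. Without that library the fold change was -0.19 ± 0.42 (SE, edgeR unadjusted p = 0.67). When the counts of its named copies were added, the fold change was 0.21.

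In the same direction within all 3 pairs lay 19 members (23.8%), against 37.4% of all genes. The 13 members higher in Gli1+ cells in each pair (16.2%, against 17.6% of all genes) were Rps3a1, Rps6, Rps4x, Rps23, Rpl4, Rpl26, Rps26, Rps12, Rpl7, Rpl36a, Rpsa, Rps24 and Rpl5. The 6 lower in each pair (7.5%, against 19.8%) were Rps29, Rps21, Rpl35a, Rpl38, Rpl22 and Rps10. The pairs went different ways. In replicate 1 the Gli1+ library was higher for 15 members (against 45% of all genes), in replicate 2 for 68 (51.9%) and in replicate 3 for 64 (50.9%). The median differences were -0.76, 0.23 and 0.20 in log2 CPM, so Gli1+ replicate 1 was on the other side from the Gli1+ libraries of replicates 2 and 3. In pairs 2 and 3 alone, 58 members were higher in Gli1+ cells in both (against 35% of all genes) and 6 were lower in both (against 32%).

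Among the groups of members by role, the stalk proteins had the largest median difference in the replicate 1 pair. Rplp1 had 239, 5686 and 1308 CPM in Gli1+ replicates 1 to 3 and 1153, 4245 and 982 CPM in Gli1- replicates 1 to 3. Rplp2 had 169, 2316 and 550 CPM in Gli1+ cells and 586, 1558 and 459 CPM in Gli1- cells. Rplp0, the base on which the other two sit, had 1439, 5648 and 2227 CPM in Gli1+ cells and 1972, 5147 and 1726 CPM in Gli1- cells. In replicate 1 all 3 were lower in Gli1+ cells and in replicates 2 and 3 all 3 were higher, with median differences of -1.79, 0.42 and 0.37 in log2 CPM. Their fold changes between populations were 0.07 to 0.22, and the exact 2-sided permutation test gave p = 0.8 for Rplp1 and 0.9 for Rplp0 and Rplp2 (n = 3 against 3, where the smallest possible p is 0.1). Over all 80 members the same test gave p from 0.3 to 1. For the 77 members with both replicate 2 libraries above the other 4, it could not reach 0.1.

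Rpl5 and Rpl11, which travel with the 5S ribosomal RNA and can bind MDM2 to stabilise p53, had fold changes of 0.12 ± 0.67 and 0.20 ± 0.87 (SE). Rpl5 had 1050, 2590 and 974 CPM in Gli1+ cells and 809, 2571 and 863 CPM in Gli1- cells, and Rpl11 had 360, 2124 and 432 CPM in Gli1+ cells and 460, 1674 and 397 CPM in Gli1- cells. Rpl5 was a little higher in the Gli1+ library of each pair, and the sign was mixed for Rpl11. Rps6, the substrate of the S6 kinases, had 1047, 3567 and 1173 CPM in Gli1+ cells and 1025, 2811 and 985 CPM in Gli1- cells (fold change 0.26 ± 0.70, SE). The 19 members mutated in Diamond-Blackfan anaemia had a median of 0.12, with 15 above 0 and 0 past the test. Of all 80 members 70% were above 0, and of all genes 50.1%. For the 8 members that line the exit tunnel the median was 0.16, and for the 7 along the mRNA path and the decoding site it was 0.01. For the 4 members with skeletal mutants or disease, Rpl38, Rpl24, Rpl13 and Rps7, it was -0.21, with Rps7 above 0. None of these members passed the test, and the lists overlap.

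The paralogs were low beside their parent genes. Rpl39l, a copy of Rpl39 best known from the testis, made up 3.59%, 0.75% and 0.66% of the summed CPM per kb of both genes in Gli1+ replicates 1 to 3 and 1.99%, 0.397% and 0.983% in Gli1- replicates 1 to 3. Rpl39l had 129, 195 and 31 counts in Gli1+ cells and 97, 93 and 52 in Gli1- cells, so the share was highest where Rpl39 itself was lowest. Rpl36al made up 0.443% to 2.20% of its pair with Rpl36a in 5 libraries and had no count in Gli1+ replicate 1, where the other 5 libraries held 72 to 127 counts. A count of 0 allows up to 3 counts. Rps27l, a p53 target, made up 37.3% of its pair with Rps27 in Gli1+ replicate 1, where Rps27 was at 52.8 CPM, and 7.08% to 16.4% in the other 5 libraries. Rps27l ran from 45.4 to 217 CPM and was above 0 in its fold change (0.32 ± 0.62, SE), which did not pass the test.

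The second comparison was between the replicate numbers of the labels. What a number stands for, such as a litter or a day, is not given in the sources used here. The replicate 2 libraries had a larger share of their counts on the members than the others in both populations. Both replicate 2 libraries were above the other 4 for 77 of the 80 members (96.2%), against 25.1% of all genes, and below them for 0 members, against 22.8%. The exceptions were Rpl36al, Rpl39l and Rpl24, all among the 5 lowest members. Averaged over both populations, replicate 2 was above replicate 1 by a median of 2.19 and above replicate 3 by a median of 1.83 in log2 CPM, where the medians over all genes were 0.14 and 0.01.

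The tests of the replicate number disagreed on the threshold. With edgeR's quasi-likelihood F test, 0 of 80 members had an adjusted p under 0.05, where 0% of all genes did, and the smallest adjusted p was 0.086 among the members and among all genes. At an unadjusted p under 0.05 there were 75 members (93.8%), against 25.5% of all genes. The likelihood ratio test of DESeq2 called 76 members (95%) at an adjusted p under 0.05, against 21.5% of all genes. Without the filter on low counts edgeR called 72 members, against 8.94% of 28536 genes, and without Gli1+ replicate 1 it called 77, against 59.7% of 15644 genes. The 5 members over an unadjusted p of 0.05 in edgeR were Rpl23a, Rps10, Rpl36al, Rpl39l and Rpl24. With 2 libraries for each number the comparison has few degrees of freedom, and genes of one family are not independent of each other.

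**Figure D4:**
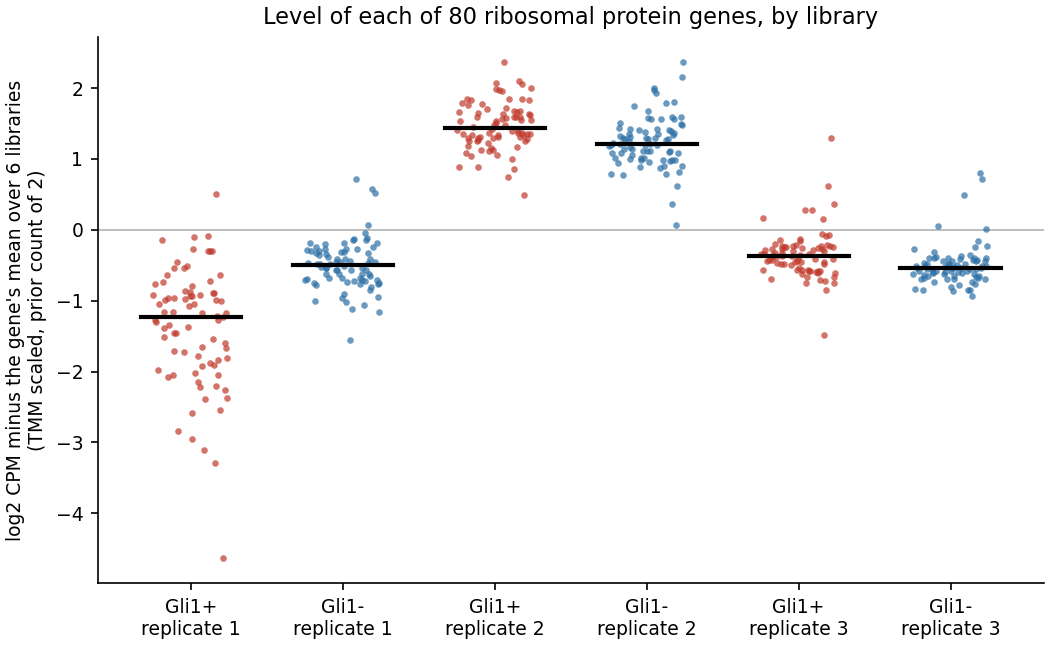
Log2 CPM of each member minus its own mean over the 6 libraries (y axis), with 1 point for each of 80 members in each library (x axis) and a black line at the median. The medians are 1.44 and 1.22 in the replicate 2 libraries and between -1.22 and -0.37 in the other 4, with the widest spread in Gli1+ replicate 1.

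The size of the difference varied among the members. The level of the replicate 2 libraries over the mean of the other 4 was 3.83 times at the median of the members and ran from 0.99 times for Rpl24 to 8.54 times for Rps28. Without Gli1+ replicate 1 the median was 3.57 times. The largest ranges over replicate numbers belonged to Rps29, Rps28, Rpl21, Rpl23a and Rps19. Rps28 (ENSMUSG00000067288, chr17:33819027-33824562, minus strand), a small protein next to the mRNA exit, had 54.0, 1300 and 170 CPM in Gli1+ replicates 1 to 3 and 116, 957 and 189 CPM in Gli1- replicates 1 to 3. Rps29 was 8.53 times as high in replicate 2 as in the others. Rps19, the gene most often mutated in Diamond-Blackfan anaemia, had 79.9, 2598 and 552 CPM in Gli1+ cells and 547, 1974 and 456 CPM in Gli1- cells. For each of them the replicate 2 libraries were the highest, and Gli1+ replicate 1 was the lowest.

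The smallest ranges belonged to Rpl4, Rpl6, Rpl5, Rps27l and Rpl7. Rpl4, which reaches into the exit tunnel, had 1782, 3969 and 1835 CPM in Gli1+ cells and 1502, 3789 and 1484 CPM in Gli1- cells, or 2.35 times as much in replicate 2. Rpl7 had 1203, 2832 and 992 CPM in Gli1+ cells and 793, 2554 and 822 CPM in Gli1- cells. The replicate 2 libraries were the highest in both populations for these members as well.

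The difference moved with transcript length across the members. The Spearman coefficient between transcript length and the excess of replicate 2 over replicate 1 was -0.42 over 80 members and -0.49 over all genes tested, and for replicate 2 over replicate 3 it was -0.36 and -0.39. The 20 shortest members (345 to 589 bases) had a median excess of 2.14 over replicate 3, and the 20 longest (1109 to 5179 bases) one of 1.63. Genes outside the family moved with length in the same libraries. Levels here are medians relative to each gene's own mean. The 1090 other genes with up to 1000 exon bases lay at 0.81 and 0.71 in the replicate 2 libraries. In Gli1+ replicate 1 they lay at -1.02. In the same 3 libraries the 4036 other genes with over 1000 and up to 3000 exon bases lay at 0.46, 0.40 and -0.73. The 9595 genes over 3000 bases lay at -0.16, -0.15 and 0.15. The members had a median of 1736.5 exon bases and lay at 1.44, 1.22 and -1.22. With the trend of each library with gene length removed, edgeR called 5 members between replicate numbers, against 2.3% of all genes. With the trends with GC content and gene length removed it called 30, against 14.7%. At an unadjusted p under 0.05 in edgeR the members fell from 75 without removal to 54 and 61 in these fits. Over all genes the number rose from 3775 to 4237 and 5367. Genes outside the family with up to 3000 exon bases thus moved to the same side as the members in these 3 libraries, and by less at the median.

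Other measured features moved with replicate 2 as well. The summed chondrocyte markers were at 27794 and 36750 CPM in the replicate 2 libraries and between 8133 and 10505 CPM in the other 4. Col2a1 was 4.57 times and Col9a2 5.22 times as high in replicate 2 as in the mean of the other 4. The 10 fibroblast markers summed to 4210 CPM in Gli1+ and 10256 CPM in Gli1- replicate 2, against 1832 to 3037 CPM in the other 4 libraries, and the 10 muscle markers to 43.5 and 37.6 CPM, against 4.04 to 22.5 CPM. The summed level of 10 dissociation-response genes such as Fos, Jun and Hspa1b was highest in replicate 2 of each population, with 2005, 16202 and 6334 CPM in Gli1+ replicates 1 to 3 and 11275, 33315 and 17160 CPM in Gli1- replicates 1 to 3. Mitochondrial transcripts took 1.68% and 1.87% of the counts in the replicate 2 libraries and 0.347% to 1.06% in the others. The part of cell makeup, dissociation and RNA quality in the members' shift was not tested.

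The replicate 1 pair behaved differently. Gli1+ replicate 1 was the lowest of the 6 libraries for 62 members (77.5%), against 35.6% of all genes. Its distance from Gli1- replicate 1 varied with the GC content of the transcript. The Spearman coefficient over the 80 members was -0.45 (-0.49 over all genes), while it was -0.08 in the replicate 2 pair and -0.03 in the replicate 3 pair. For the 20 members with the lowest GC content (41.3% to 48.5%) the median difference was -0.10 in log2 CPM, and for the 20 with the highest (54.3% to 60.8%) it was -1.26, with Gli1+ replicate 1 lower for all 20 of the latter. The medians of the same sets of 20 were 0.25 and 0.21 in the replicate 2 pair and 0.23 and 0.20 in the replicate 3 pair. The members of low GC content that were higher in Gli1+ cells in all pairs include Rpl7 (45.8%), Rps23 (46.0%), Rpl36a (46.6%) and Rpl5 (42.7%). Rps12 (53.1%) and Rpl26 (54.1%), of higher GC content, were also higher in all pairs. The replicate 1 difference varied with transcript length too, with medians of -1.16 in the 20 shortest members and -0.31 in the 20 longest.

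**Figure D5:**
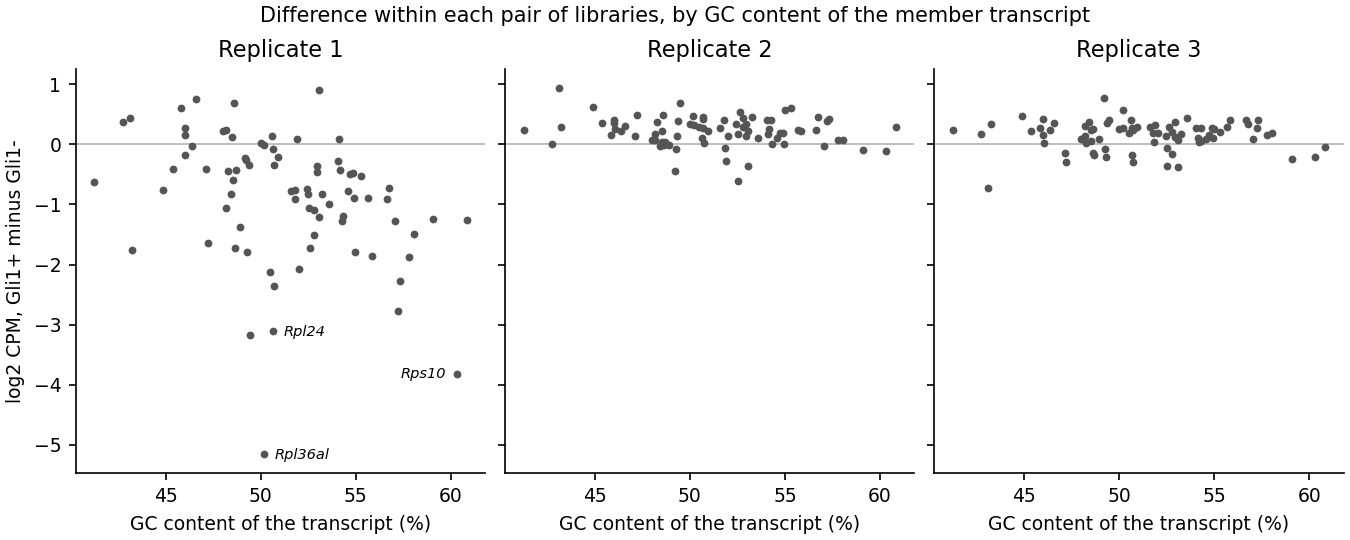
Difference in log2 CPM between the Gli1+ and the Gli1- library of the same replicate number (y axis) against the GC content of the principal transcript (x axis, %), with 1 point for each of 80 members. In replicate 1 the points fall from a median of -0.10 in the 20 members of lowest GC content to -1.26 in the 20 of highest. In replicates 2 and 3 they lie mostly above 0, with medians of 0.23 and 0.20 over the 80 members.

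Other genes of translation were compared in the same way. Of 37 translation factors and associated proteins, 0 passed the population test and 22 had both replicate 2 libraries on top, where 25.1% of all genes did. Eef1a1, which brings tRNA to the ribosome and whose mRNA also begins with a pyrimidine tract, had 6495, 18152 and 6637 CPM in Gli1+ replicates 1 to 3 and 6203, 16816 and 6058 CPM in Gli1- replicates 1 to 3. Tpt1, another such mRNA, was 3.45 times as high in replicate 2 as in the others, and Eef2 1.37 times. Some proteins close to the family are left out by the naming rule. Among these, Fau, whose product is cut to release eS30, was 4.13 times as high in replicate 2 as in the others. Rack1, a scaffold on the small subunit, was 2.57 times as high, while Rpl7l1 was lower, at 0.68 times.

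The products of ribosome assembly genes build the subunits in the nucleolus. Of 47 assembly factors, 7 had both replicate 2 libraries above the other 4 and 23 had both below (against 25.1% and 22.8% of all genes), and the medians of replicate 2 over replicates 1 and 3 were -0.61 and -0.77 in log2 CPM. Nolc1, a nucleolar chaperone, was at 169 and 136 CPM in the replicate 2 libraries and between 321 and 438 CPM in the others. Between populations 35 of the 47 were above 0, against 50.1% of all genes, with a median fold change of 0.18 (0.22 with the block) and 0 past the test. Ncl, the nucleolar protein nucleolin, had 2761, 1247 and 1613 CPM in Gli1+ cells and 1042, 994 and 1251 CPM in Gli1- cells, higher in Gli1+ cells in each pair, with a fold change of 0.77 ± 0.50 (SE, edgeR unadjusted p = 0.16). Of 77 genes for mitochondrial ribosomal proteins, 41 had both replicate 2 libraries on top (against 25.1% of all genes), and the median of replicate 2 over replicate 3 was 0.52.

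Of 29 genes of the mTOR and S6 kinase pathway, 9 had both replicate 2 libraries above and 9 had both below the other 4, where 25.1% and 22.8% of all genes did. Larp1, which binds the pyrimidine tract, had 567, 114 and 328 CPM in Gli1+ replicates 1 to 3 and 344, 89.1 and 307 CPM in Gli1- replicates 1 to 3. Its 2 lowest libraries were thus those in which the members were highest. Eif4ebp1, a repressor of cap-dependent translation under mTOR control, was 3.07 times as high in replicate 2 as in the others. Myc, the gene of this list with the highest level, was at 0.82 times. Of 15 genes of the p53 response to ribosomal stress, 6 had both replicate 2 libraries on top (against 25.1% of all genes). Cdkn1a, the best known p53 target, was at 1089 and 807 CPM there and between 264 and 679 CPM in the others. The next 2 genes of this list by level went different ways. Btg2 was 2.33 times as high in replicate 2 as in the others, and Sesn2 was lower, at 0.47 times. In none of these lists did a gene pass the population test.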

How the data were processed

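Poly(A)-selected, random-primed libraries of 3 Gli1+ and 3 Gli1- samples were sequenced and analysed by Novogene. The authors deposited 1 table of raw counts for each gene and library, without pooling or normalization. The submitters' processing notes list HISAT2 2.0.5, featureCounts 1.5.0-p3 and mm10. The annotation release, the use of strand and the handling of reads with several hits are not given in the sources used here, so counts of overlapping genes, antisense partners and copies are uncertain.

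Genes were filtered with filterByExpr of edgeR 4.0.16 (minimum count of 10), which left 14801 of 54532 genes and all 80 members, and scaled by TMM. Populations were compared by the quasi-likelihood test without a covariate, and replicate numbers by an F test in a fit with population and number. Benjamini-Hochberg adjustment ran over the 14801 genes, and genes were called in the population test at an adjusted p under 0.05 and a log2 fold change over 1 in size. Log2 CPM values carry a prior count of 2. DESeq2 1.42.0 (R 4.3.3) and the other alternatives of the closing section were also run, among them removal of trends with gene length or GC content by lowess (span of 0.3). The scripts were tested on simulated data. Transcript length and GC content are those of the principal transcript in GENCODE M21, whose coordinates equal those of the table for 78 members; CPM per kb uses this length, a choice made after the data were seen. The window of 100 bases for shared sequence was set without a stated read length.

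Members and lists were chosen with earlier results of these data known. The text names members by rule: the 10 highest per kb, the 5 highest and 5 lowest fold changes, the 5 largest and 5 smallest ranges over replicate numbers, the stalk genes, 6 listed genes, the paralogs with their parents, and of other lists at most the 3 genes of highest mean CPM. Rpl13a, Rpl19, Rps7, Rps10-ps2, Gli1, Fn1, Sox9, Fos and the members with 1 direction in all pairs were named after their values were seen.

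The labels give each population the numbers 1 to 3, and the study took both populations from the same animals. Centred on its population, each library correlated with the library of its number across genes at 0.223, 0.720 and 0.471, so numbers were treated as pairs, although what a number marks is not stated. Gli1+ replicate 1 correlated more with Gli1- replicate 3 (0.274) than with its own number. The population test carries no block, and the blocked fit is an alternative. Totals of 17114101 to 18602482 counts set the precision of single values, and standard errors cover the spread between libraries. The table has 0 unused sample columns.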

Additional observations from a re-analysis of the deposited data

Results flagged for a closer look

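Rows outside the comparisons carried a signal. The comparisons left out the rows named after a member with the ending -ps, some of which are annotated as protein-coding and not as pseudogenes. These rows held 0.168%, 0.620% and 0.231% of the counts in Gli1+ replicates 1 to 3 and 0.253%, 0.427% and 0.201% in Gli1- replicates 1 to 3. They were looked at because each share lies above what a count of 0 allows. As for the members, both replicate 2 libraries were the highest and Gli1+ replicate 1 was the lowest. Rps10-ps2 alone held 3279, 11569 and 4101 counts in Gli1+ cells and 4222, 7842 and 3145 counts in Gli1- cells, more than Rps10 itself in every library. Whether such counts stem from transcripts of the copies or from reads of the member was not tested.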

How the results depend on the processing

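The count of members past the population test stayed at 0 under every alternative that was run, 20 in all, with 0 to 2 members at an unadjusted p under 0.05, the 2 being Rps21 and Rps29 in DESeq2 with the replicate block, where 11.7% of all genes were under it. The median fold change of the members lay between -0.11 and 0.14 in the alternatives that kept all libraries, with 30 to 57 members above 0, between -0.21 and 0.22 with 1 replicate number left out, and between -1.07 and 0.90 with 1 library left out. The count between replicate numbers moved most. It was 0 by edgeR, 76 with the DESeq2 likelihood ratio test, 72 without the filter on low counts, 5 with the gene length trend removed and 30 with GC and gene length trends removed, and from 0 to 77 with libraries left out. The value of 77 came without Gli1+ replicate 1 (against 59.7% of all genes) and without both replicate 1 libraries (against 57.1%), and the value of 0 without the replicate 2 or the replicate 3 libraries. The other scalings, the protein-coding genes alone and the added copies left it at 0. At an unadjusted p under 0.05 in edgeR there were 75 members in the main fit. With the gene length trend removed there were 54, and with GC and gene length trends removed 61. The cause of these moves was not tested. The removal of GC trends, the block together with the length trend and, for replicate numbers, the length trend and the fit without Gli1+ replicate 1 were, like the counts over pairs 2 and 3 and the replicate 2 excess without that library, chosen after the data were seen. The mean share of counts was also higher in Gli1+ cells in the 3 other forms of the share, which rescale the same libraries. Within replicate numbers 1 to 3 the share in Gli1+ cells was 0.651, 1.27 and 1.09 times that in Gli1- cells. The direction was thus not the same in all pairs.

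Single fold changes, none of which passed the test, changed sign in 144 of 720 values that the alternatives gave for the 36 members named by rule. The labels' replicate numbers pair the libraries, and with the replicate block the fold change was 0.031 for Rpl21, -0.54 for Rpl23a, 0.045 for Rpl3, -0.85 for Rpl36al, -0.11 for Rpl41, -0.42 for Rplp1, -0.29 for Rplp2, -0.19 for Rps18, -0.61 for Rps19 and -0.27 for Rps28. In DESeq2 with that block it was 0.020 for Rpl21, -0.55 for Rpl23a, 0.033 for Rpl3, -0.99 for Rpl36al, -0.13 for Rpl41, -0.43 for Rplp1, -0.30 for Rplp2, -0.20 for Rps18, -0.63 for Rps19 and -0.28 for Rps28. With the block and the gene length trend removed together it was 0.21 for Rpl21, -0.40 for Rpl23a, 0.23 for Rpl3, -0.83 for Rpl36al, -0.23 for Rplp1, -0.11 for Rplp2, -0.035 for Rps18, -0.49 for Rps19 and -0.066 for Rps28. With the gene length trend alone removed it was 0.013 for Rpl21, -0.018 for Rpl23a, 0.14 for Rpl3, -0.17 for Rpl36al and -0.060 for Rplp1, and with GC and gene length trends removed -0.028 for Rpl23a, 0.13 for Rpl3, -0.17 for Rpl36al and 0.011 for Rps15. With copies added it was 0.033 for Rpl21 and 0.21 for Rps10, and for Rpl36al it was -0.00045 with DESeq2 size factors and -0.00030 in DESeq2. The block changed no call of a member.

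With 1 library or 1 replicate number left out, the fold changes ran over these ranges: Rpl10 -1.05 to 0.66, Rpl11 -1.11 to 1.16, Rpl13 -1.28 to 0.58, Rpl21 -1.18 to 1.49, Rpl23a -1.27 to 1.03, Rpl24 -0.96 to 0.074, Rpl3 -0.66 to 0.75, Rpl32 -0.89 to 1.30, Rpl36a -0.64 to 1.55, Rpl36al -0.40 to 0.59, Rpl38 -1.81 to 0.93 and Rpl39 -1.70 to 1.34. For a further set they were Rpl39l -0.16 to 1.01, Rpl4 -0.34 to 0.73, Rpl41 -1.39 to 1.31, Rpl5 -0.50 to 0.85, Rpl6 -0.58 to 0.62, Rpl7 -0.36 to 1.03, Rplp0 -0.70 to 0.72, Rplp1 -1.47 to 1.15, Rplp2 -1.28 to 0.93, Rps14 -1.49 to 0.75, Rps15 -1.56 to 0.85 and Rps18 -1.39 to 1.35. For the rest they were Rps19 -1.66 to 1.08, Rps21 -2.15 to 0.89, Rps23 -1.05 to 1.59, Rps26 -0.34 to 1.28, Rps27 -1.80 to 0.73, Rps27l -0.51 to 0.71, Rps28 -1.92 to 1.73, Rps29 -2.35 to 1.30, Rps3a1 -0.65 to 0.88, Rps4x -0.69 to 0.92 and Rps6 -0.55 to 0.91. Of these 35 members, 33 had their lowest value without Gli1+ replicate 2 and 32 their highest without Gli1- replicate 2.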

Other observations

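A single matrix gene outweighed the whole family in some libraries. Fn1, which codes for fibronectin and was picked after its values were seen, held 7.20%, 1.35% and 5.88% of the counts in Gli1+ replicates 1 to 3 and 1.93%, 0.818% and 2.71% in Gli1- replicates 1 to 3. In Gli1+ replicates 1 and 3 this was more than the 3.12% and 4.89% on the 80 ribosomal protein genes together, and in the other 4 libraries it was less. The Fn1 share was lowest in the replicate 2 library of each population, where that of the ribosomal protein genes was highest. Among the mitochondrial ribosomal proteins, Mrpl52 was 4.39 times as high in the replicate 2 libraries as in the mean of the others and Mrpl17 1.62 times.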
